A study of Mus musculus with 24 samples.

Results

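The 10 genes described here are Fgf2, Ccbe1, Cemip, Sned1, Dyrk3, Arhgdig, Veph1, Nat8l, Lctl and Ctxn1. They were picked out of 21671 genes in the expression table of a mouse fibroblast study and chosen by measured values, since their RNA was lower or higher in cells with the RA form of Myc than in control cells at 4 h or 8 h. The cells were 3T9 fibroblasts, an immortalised mouse embryo line, infected with an empty vector (EV) or with a vector for MycER_WT, MycER_HEA or MycER_RA. All cells, EV included, received 4-hydroxytamoxifen (OHT) for 4 h or 8 h, and total RNA was sequenced from 3 libraries in each of the 8 groups. The labels describe infected populations grown in DMEM with fetal bovine serum and do not tell whether the 3 libraries of a group stem from independent cultures, so p-values refer to variation among these libraries, part of which may be technical. Libraries without OHT were not used here.

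Myc is a transcription factor that binds DNA as a dimer with Max, with a preference for the E-box CACGTG, and both raises and lowers RNA levels of many genes. In MycER, Myc is joined to an oestrogen receptor fragment that holds the fusion inactive until OHT is added. As background, the HEA form exchanges residues that contact the bases of the E-box, and the RA form exchanges arginines that contact the DNA backbone; the labels used here do not list the residues. EV cells with OHT therefore control for the drug and the infection, MycER_WT carries the intact DNA-binding surface, and the other forms carry altered ones.

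The 10 genes have varied jobs. Fgf2 encodes a growth factor of fibroblasts, and Ccbe1 a secreted protein that helps to process the lymphatic growth factor VEGF-C. Cemip breaks down hyaluronan in the extracellular matrix, and Sned1 encodes a matrix glycoprotein. Inside the cell, Dyrk3 is a kinase that regulates the dissolution of condensates, Arhgdig is a GDP-dissociation inhibitor, and Veph1 has a pleckstrin homology domain and is related to the fly protein melted. Nat8l makes N-acetylaspartate, Lctl is a membrane protein of the klotho and lactase family, and Ctxn1 is a small membrane protein first known from the cerebral cortex.

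Levels are given as RPKM, reads per kilobase of gene, scaled by the reads of the library, and library values are listed in the order of replicates 1, 2 and 3. Fold changes and their standard errors (SE) are on the log2(RPKM + 0.5) scale, which understates the change of low genes. They come from 1 limma fit over all 12268 genes that reached 1 RPKM in at least 3 libraries, with Benjamini-Hochberg adjusted p and a threshold of 0.05, and all 10 genes passed that filter. Sned1 passed it through 12 libraries, all of MycER_HEA or MycER_RA, in which it was high. The difference between MycER_RA and EV chose the genes and is therefore given as a description without a test, and so are the differences between MycER_RA and the other forms and those over time in EV and MycER_RA. MycER_WT against EV and MycER_HEA against EV are tested but share the EV libraries with the choice. The values of MycER_WT against MycER_HEA come from none of the libraries that chose the genes, but the fit estimates the spread from all 8 groups, and the genes were picked with earlier results of these data known.

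Libraries held 9.82 M to 12.8 M reads, M standing for mega, assigned to genes. The Esr1 row, which reads the receptor part of the fusion, lay between 9.04 and 13.7 RPKM in the 18 MycER libraries and between 0.0990 and 0.385 RPKM in the 6 EV libraries. The Myc row had 29.0 to 68.3 RPKM over all libraries and was lower in MycER_WT than in EV, by a log2 difference of -0.51 ± 0.17 at 4 h (limma, adjusted p = 0.0286) and -0.60 ± 0.17 at 8 h (adjusted p = 0.00754); whether this row also reads the fusion is not known. Of 12 fibroblast markers, 11 averaged at least 1 RPKM, while none of 10 epithelial markers did and Epcam was at 0 in all libraries. Summed endothelial markers stood between 18.7 and 23 RPKM in the MycER_HEA libraries and between 4.67 and 8.50 RPKM in all others. Flt1 led that list, with a mean of 7.06 RPKM, whereas the defining markers Pecam1 and Kdr averaged 0.0716 and 0.00344 RPKM. Of 7 marker lists, the summed level lay apart from EV of the same time without overlap for 2 at each time in MycER_WT, for 4 at 4 h and 5 at 8 h in MycER_HEA, and for 0 at 4 h and 3 at 8 h in MycER_RA. Summed neuronal markers, led by Gap43, were 52.2 to 70.5 RPKM in MycER_HEA and 70.6 to 90.2 in all others, and at 8 h they were 75.0 to 77.6 in MycER_RA and 79.0 to 90.2 in EV. Summed muscle markers, led by Acta1 with Myod1 at 0, were 6.89 to 7.61 RPKM in EV, 4.73 to 6.54 in MycER_WT and 2.82 to 3.62 in MycER_HEA at 4 h, and 4.23 to 4.38, 2.46 to 3.22 and 1.91 to 2.50 at 8 h. Summed adipocyte markers, led by Fabp4, were 4.18 to 7.02 RPKM in EV and 8.77 to 9.68 in MycER_WT at 4 h, and 4.71 to 6.69 and 6.86 to 7.75 at 8 h. At 8 h the summed fibroblast markers were 940 to 964 RPKM in EV, 986 to 1019 in MycER_RA and 977 to 1081 in MycER_HEA. The summed macrophage markers, led by Cd68 with C1qa and Emr1 at 0, were 23.1 to 25.8 in EV at 8 h. They were 19.7 to 21.5 in MycER_RA and 20.2 to 22.9 in MycER_HEA. The part of these markers in the results below was not tested. In bulk RNA, fewer cells of a type and less RNA per cell cannot be told apart, and RPKM gives each gene as a share of its library.

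In the fit over all groups, MycER_RA differed from EV in few genes. At 4 h 652 of the tested genes, 5.31%, were called, and at 8 h 341, 2.78%. These counts are unsteady, and with only the groups compared they were 3 at 4 h and 1310 at 8 h. All 10 genes were among the 652 and all but Fgf2 among the 341, which follows from how they were chosen. Among the genes called, 26 at 4 h and 28 at 8 h changed by at least 2-fold on this scale, and 6 and 9 of these belonged to the 10. The 3 other genes with the smallest p at 4 h were Esr1, from the fusion, Rasgrp3, with 8.06 RPKM in EV and 16.0 in MycER_RA, and Ccl7, with 10.7 and 29.3 RPKM. At 8 h they were Esr1, Hmgb3, with 47.4 RPKM in EV and 27.2 in MycER_RA, and Lrrc8b, with 11.1 and 5.84 RPKM.

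The 10 genes were also compared among the other forms. MycER_WT against EV called 4 of the 10 at 4 h, where 26.1% of tested genes were called, 3196 in number (2040 without MycER_WT replicate 3 and 1112 with only the groups compared), and the count at 8 h was again 4 against 35.2%. MycER_HEA against EV called 7 at 4 h against 43.2% of all genes, and 6 at 8 h against 47.7%. Between MycER_WT and MycER_HEA, 7 were called at 4 h, where the share over all genes was 49.5%, and 8 at 8 h, where it was 48.0%. With the spread taken from these groups alone the counts were 5 and 8, the 6073 genes called at 4 h became 3945, and Ccbe1 (limma, adjusted p = 0.0649) and Veph1 (adjusted p = 0.106) lost their calls at 4 h. The median size of the log2 difference between MycER_WT and MycER_HEA at 8 h was 1.12 over the 10 genes and 0.29 over all tested genes. With 10 genes, the counts are read beside these shares and are not taken to set the list apart. The levels of the 10 genes in all 24 libraries fall into several patterns rather than a single one.

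**Figure D1:**
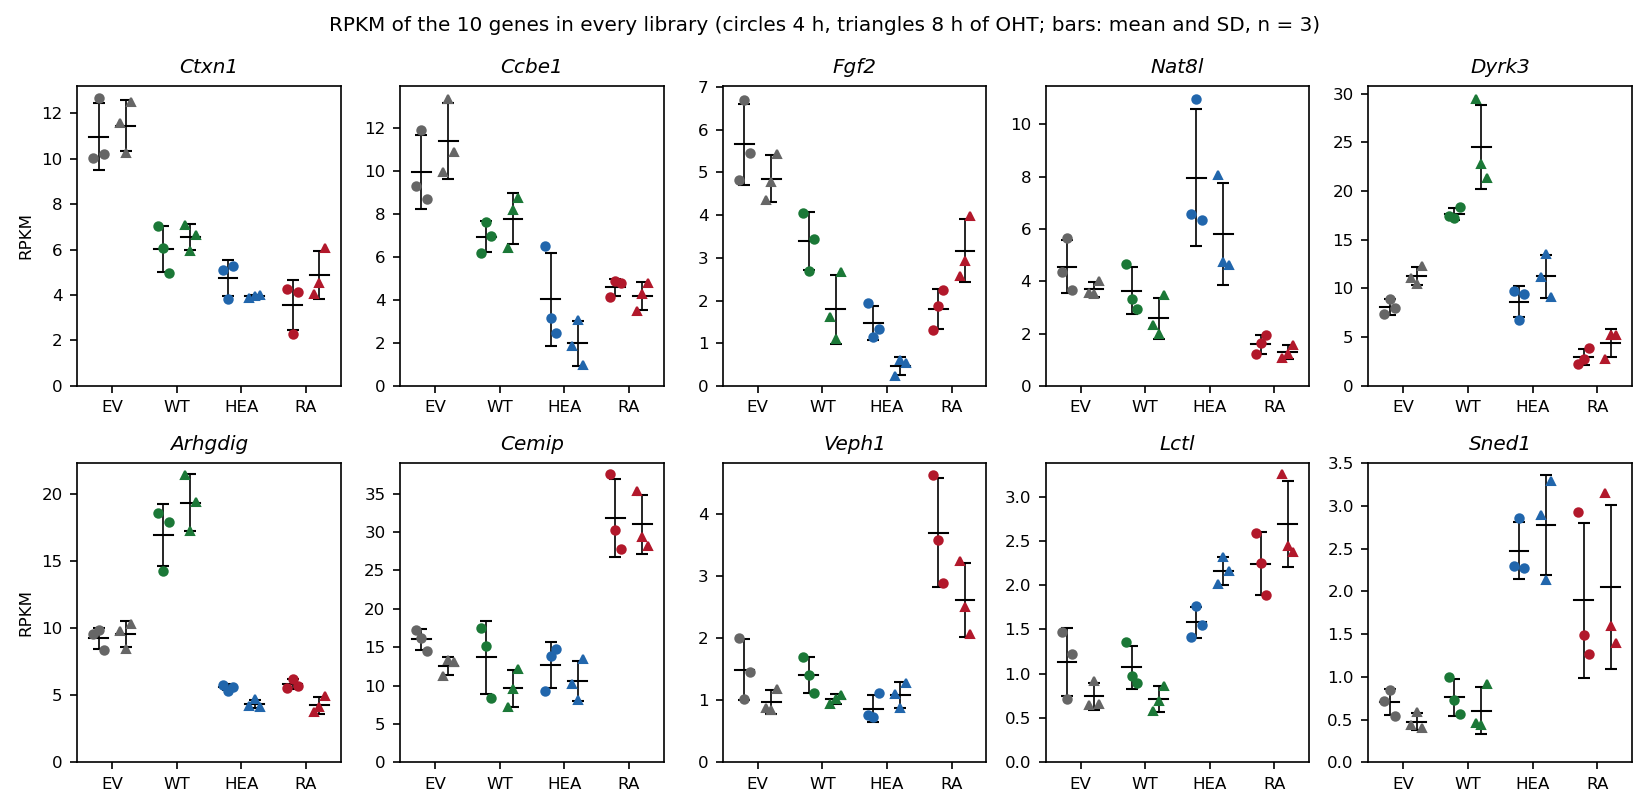
RPKM (vertical axes, each from 0) of the 10 genes in every library of EV, MycER_WT, MycER_HEA and MycER_RA cells, with circles for 4 h, triangles for 8 h and bars for the mean and SD of 3 libraries. Cemip and Veph1 stand higher in the 6 MycER_RA libraries than in the 18 others, Dyrk3 and Nat8l stand lower there, and the other 6 genes overlap with at least 1 library of another form.

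Fgf2, the growth factor, was highest in EV and lowest in MycER_HEA. EV libraries had 4.83, 6.70 and 5.45 RPKM at 4 h and 4.35, 4.78 and 5.44 at 8 h. MycER_RA libraries had 1.32, 1.86 and 2.25 RPKM at 4 h and 2.57, 2.93 and 3.99 at 8 h. The MycER_RA values lay below every EV value at the same time, and all 3 at 8 h lay above all 3 at 4 h. The log2 difference between MycER_RA and EV was -1.42 ± 0.24 (SE from the fit over all groups, 3 libraries a group) at 4 h and -0.56 ± 0.24 at 8 h.

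MycER_WT had 4.05, 2.70 and 3.43 RPKM of Fgf2 at 4 h and 1.61, 1.10 and 2.67 at 8 h. MycER_HEA had 1.93, 1.16 and 1.33 RPKM at 4 h and 0.223, 0.618 and 0.548 at 8 h. The order of the means at 8 h was thus EV, MycER_RA, MycER_WT and MycER_HEA, with an overlap between the MycER_RA and MycER_WT ranges. Fgf2 fell in MycER_HEA against EV by 1.65 ± 0.24 on the log2 scale at 4 h (limma, adjusted p = 1.35e-05) and by 2.50 ± 0.24 at 8 h (adjusted p = 5.89e-08), with every library lower. It fell in MycER_WT by 1.28 ± 0.24 at 8 h (adjusted p = 0.000295). At 4 h the fall in MycER_WT was 0.66 ± 0.24 (adjusted p = 0.0439), and this call was lost without EV replicate 2 or 3 or without MycER_WT replicate 2 or 3 (adjusted p = 0.0804 to 0.156). MycER_WT stood above MycER_HEA by 0.99 ± 0.24 at 4 h (adjusted p = 0.00191) and by 1.22 ± 0.24 at 8 h (adjusted p = 0.000239).

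The low values of Fgf2 rest on few reads. The 3 MycER_HEA libraries at 8 h held 2, 6 and 5 reads of Fgf2, 13 in all, against 151 in the EV libraries. Per read of the library the MycER_HEA sum was 10.4-fold lower, with an exact 95% interval for counting error of 5.89- to 19.9-fold. Fgf2 also overlaps Nudt6, a gene on the opposite strand, and no source used here gives the strand setting of the authors' read counting, so reads of the pair cannot be told apart. Nudt6 moved the same way in MycER_HEA against EV at 8 h, with a log2 fold change of -1.10 ± 0.15 (limma, adjusted p = 6.36e-06), and it was -0.54 and -0.67 in MycER_RA against EV at 4 h and 8 h.

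Fgf2 was the only gene of the 10 with a called change between 4 h and 8 h, among the 2 forms where time was tested. It fell by 0.81 ± 0.24 in MycER_WT (limma, adjusted p = 0.0395), where 8.46% of all genes were called, and by 1.04 ± 0.24 in MycER_HEA (adjusted p = 0.0193), where 3.33% were called. These shares are unsteady. The 1038 genes called in MycER_WT became 451 without replicate 3 at 4 h, 290 without replicate 1 at 8 h, 649 without replicate 3 at 8 h and 0 with only the groups compared. The 409 in MycER_HEA became 105 and 618 without replicate 2 or 3 at 4 h, 151 and 129 without replicate 2 or 3 at 8 h, 647 with quantile normalisation and 2 with only the groups compared. In EV the difference between the times was -0.20 ± 0.24, and in MycER_RA it was 0.67 ± 0.24, with the 8 h libraries higher. The MycER_WT call was lost without MycER_WT replicate 1 or 3 at 4 h or replicate 1 or 2 at 8 h (adjusted p = 0.104 to 0.160), and the MycER_HEA call without MycER_HEA replicate 1 at 4 h or replicate 1 or 3 at 8 h (adjusted p = 0.0513 to 0.0740).

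Ccbe1, the VEGF-C processing factor, was lower in all MycER_RA libraries than in any EV library. EV had 9.30, 11.9 and 8.71 RPKM at 4 h and 9.95, 13.4 and 10.9 at 8 h. MycER_RA had 4.16, 4.87 and 4.78 RPKM at 4 h and 3.47, 4.30 and 4.79 at 8 h. The MycER_RA libraries were close together, and the log2 differences from EV were -1.03 ± 0.27 and -1.34 ± 0.27. MycER_HEA had 6.52, 3.15 and 2.48 RPKM at 4 h and 1.88, 3.09 and 0.979 at 8 h, so replicate 1 at 4 h stood well above the other 2. Ccbe1 fell in MycER_HEA against EV by 1.29 ± 0.27 at 4 h (limma, adjusted p = 0.000679) and by 2.34 ± 0.27 at 8 h (adjusted p = 7.25e-07).

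In MycER_WT, Ccbe1 had 6.20, 7.66 and 6.99 RPKM at 4 h and 6.45, 8.20 and 8.76 at 8 h. All 6 libraries lay under the EV libraries of their time, but the log2 differences of -0.49 ± 0.27 and -0.52 ± 0.27 did not pass the test (limma, adjusted p = 0.199 and 0.143). The difference at 8 h passed with only the groups compared (adjusted p = 0.0345), while at 4 h none of the alternative fits made here passed. The authors' own comparison with DESeq2 gave adjusted p = 0.0198 at 4 h and 0.00310 at 8 h. Ccbe1 was higher in MycER_WT than in MycER_HEA by 1.82 ± 0.27 at 8 h (adjusted p = 1.13e-05). At 4 h the difference was 0.81 ± 0.27 (adjusted p = 0.0182) with overlapping ranges, and this call was lost without MycER_WT replicate 2 or without MycER_HEA replicate 2 or 3 (adjusted p = 0.0559 to 0.111). The change from 4 h to 8 h in MycER_HEA was -0.86 ± 0.27 and did not pass the test (adjusted p = 0.0848); it passed without MycER_HEA replicate 3 at 4 h (adjusted p = 0.0280) or replicate 2 at 8 h (adjusted p = 0.0373).

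Cemip, the hyaluronan-degrading protein, was the most highly expressed of the 10 in MycER_RA. MycER_RA libraries had 37.5, 30.2 and 27.9 RPKM at 4 h and 35.4, 29.4 and 28.2 at 8 h. EV libraries had 17.3, 16.3 and 14.5 RPKM at 4 h and 11.2, 13.4 and 13.0 at 8 h. The lowest MycER_RA library was above the highest of the 18 other libraries, which had 17.6 RPKM. MycER_RA exceeded EV by 0.96 ± 0.23 on the log2 scale at 4 h and 1.27 ± 0.23 at 8 h.

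In the other forms Cemip did not pass the test. MycER_WT had 17.6, 15.1 and 8.38 RPKM at 4 h and 7.27, 9.56 and 12.1 at 8 h. MycER_HEA had 9.24, 13.9 and 14.8 RPKM at 4 h and 10.2, 8.18 and 13.4 at 8 h. Both ranges overlapped with EV at both times, and neither form passed the test against EV (limma, adjusted p = 0.204 to 0.399). Between MycER_WT and MycER_HEA the difference was 0.07 ± 0.23 at 4 h, with a 95% interval of -0.40 to 0.55, and -0.13 ± 0.23 at 8 h, with an interval of -0.61 to 0.35.

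Sned1, the matrix glycoprotein, was low in EV and MycER_WT and higher in both altered forms. EV had 0.716, 0.846 and 0.545 RPKM at 4 h and 0.435, 0.595 and 0.402 at 8 h. MycER_RA had 2.93, 1.49 and 1.27 RPKM at 4 h and 3.16, 1.60 and 1.4 at 8 h, with replicate 1 about as high as the MycER_HEA libraries at both times and the others lower. MycER_HEA had 2.30, 2.86 and 2.28 RPKM at 4 h and 2.89, 2.14 and 3.29 at 8 h. Sned1 rose in MycER_HEA against EV by 1.31 ± 0.25 at 4 h (limma, adjusted p = 0.000329) and by 1.73 ± 0.25 at 8 h (adjusted p = 1.35e-05), and MycER_RA exceeded EV by 0.94 ± 0.25 and 1.33 ± 0.25. No EV or MycER_WT library reached 1 RPKM of Sned1, so the filter let the gene in only where it was high; with no filter the adjusted p in MycER_HEA against EV was 0.000655 at 4 h and 3.38e-05 at 8 h.

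MycER_WT stood at 0.996, 0.728 and 0.566 RPKM of Sned1 at 4 h and at 0.457, 0.438 and 0.919 at 8 h, overlapping with EV. Its difference from EV did not pass the test at either time (limma, adjusted p = 0.882 and 0.675). MycER_WT was below MycER_HEA by a log2 difference of -1.25 ± 0.25 at 4 h (adjusted p = 0.000436) and -1.58 ± 0.25 at 8 h (adjusted p = 2.98e-05), with no overlap, and with no filter the adjusted p was 0.000853 and 6.85e-05. Sned1 overlaps Mterf4 on the opposite strand, whose log2 fold change in MycER_HEA against EV was -0.05 ± 0.11 at 4 h and -0.02 ± 0.11 at 8 h. Between MycER_RA and EV, Mterf4 differed in the direction of Sned1, by 0.39 ± 0.11 at 4 h and 0.25 ± 0.11 at 8 h.

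Dyrk3, the condensate kinase, moved in opposite directions in MycER_WT and MycER_RA. EV had 7.36, 8.92 and 8.04 RPKM at 4 h and 11.1, 10.5 and 12.3 at 8 h. MycER_WT had 17.4, 17.2 and 18.3 RPKM at 4 h and 29.4, 22.8 and 21.3 at 8 h. MycER_RA had 2.26, 2.77 and 3.91 RPKM at 4 h and 2.79, 5.21 and 5.22 at 8 h. The 6 MycER_RA libraries lay below all 18 others, and the 6 MycER_WT libraries lay above all libraries of the other groups. Dyrk3 rose in MycER_WT against EV by 1.08 ± 0.20 at 4 h (limma, adjusted p = 0.000552) and by 1.07 ± 0.20 at 8 h (adjusted p = 0.000322).

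For Dyrk3 the log2 difference of MycER_RA from EV was -1.33 ± 0.20 at 4 h and -1.31 ± 0.20 at 8 h, and from MycER_WT it was -2.41 ± 0.20 and -2.38 ± 0.20, the largest differences between these forms among the 10 genes. MycER_HEA had 9.71, 6.78 and 9.44 RPKM at 4 h and 11.2, 13.5 and 9.09 at 8 h, overlapping with EV. The log2 differences between MycER_HEA and EV of 0.07 ± 0.20 and -0.02 ± 0.20 did not pass the test (limma, adjusted p = 0.792 and 0.957), with 95% intervals of -0.35 to 0.49 and -0.44 to 0.40. Dyrk3 was higher in MycER_WT than in MycER_HEA by 1.00 ± 0.20 at 4 h (adjusted p = 0.000367) and 1.09 ± 0.20 at 8 h (adjusted p = 0.000139).

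The promoters of Dyrk3, Cemip and Veph1 are shown because the 6 MycER_RA libraries lay apart from the 18 others for these genes. The forms of Myc also differ in how they contact DNA. Nat8l lay apart as well but had no RefSeq promoter window. The sequences are the 250 bases before the RefSeq start on mouse build GRCm38.p6, printed along the gene's strand. They lie on the minus strand at chr1:131138235-131138484 for Dyrk3, chr7:84086506-84086755 for Cemip and chr3:66296838-66297087 for Veph1. The expression files were made on mm9, so these coordinates do not apply to them. Capitals mark matches to the motifs searched on both strands, which were the E-box CACGTG, a variant with the letters CACGCG, another variant with CATGCG, and the general form CANNTG, of which the E-box is a case.
Dyrk3: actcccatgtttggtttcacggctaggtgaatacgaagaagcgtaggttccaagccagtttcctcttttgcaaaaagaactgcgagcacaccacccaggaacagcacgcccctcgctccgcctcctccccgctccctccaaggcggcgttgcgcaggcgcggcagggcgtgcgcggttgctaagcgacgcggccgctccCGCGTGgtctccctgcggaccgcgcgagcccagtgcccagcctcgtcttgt
Cemip: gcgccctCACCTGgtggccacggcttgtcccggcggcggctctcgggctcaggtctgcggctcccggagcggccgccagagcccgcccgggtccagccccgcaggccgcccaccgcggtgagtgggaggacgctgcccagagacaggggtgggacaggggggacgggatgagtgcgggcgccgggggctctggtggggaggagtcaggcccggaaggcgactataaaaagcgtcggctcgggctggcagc
Veph1: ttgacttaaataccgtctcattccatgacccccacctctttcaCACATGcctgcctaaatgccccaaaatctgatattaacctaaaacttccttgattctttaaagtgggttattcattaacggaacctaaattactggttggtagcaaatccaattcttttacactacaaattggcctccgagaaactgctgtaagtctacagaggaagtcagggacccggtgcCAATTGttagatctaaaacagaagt

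Of the 10 genes, 7 had a RefSeq window of 250 bases before and 50 after the start, and none of the 7 held CACGTG, which 7.15% of the 32851 windows hold. The Dyrk3 window held CACGCG, in the reverse orientation, with its first base at position -51 from the start, a motif found in 9.27% of windows. CANNTG occurred 1 time in the Dyrk3 window, at position 12 and thus beyond the stretch printed, 1 time in Cemip, 2 times in Veph1 and 3 times in Lctl, and 72.3% of all windows held it. The windows of Ctxn1, Fgf2 and Sned1 held none of the motifs. The Dyrk3 and Cemip windows held 32 and 33 CpG dinucleotides at 66.3% and 73.7% GC, and the Veph1 window 6 at 41.7%, against medians of 7 and 52.7% over all windows. These matches describe letters in the windows and say nothing of binding.

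Arhgdig, the GDP-dissociation inhibitor, rose in MycER_WT and fell in MycER_HEA. EV had 9.55, 9.85 and 8.37 RPKM at 4 h and 9.81, 8.47 and 10.3 at 8 h. MycER_WT had 18.6, 14.3 and 18 RPKM at 4 h and 21.4, 17.3 and 19.4 at 8 h. The rise against EV was 0.83 ± 0.12 at 4 h (limma, adjusted p = 3.00e-05) and 0.98 ± 0.12 at 8 h (adjusted p = 1.82e-06), with no overlap at either time.

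MycER_HEA had 5.79, 5.35 and 5.64 RPKM of Arhgdig at 4 h and 4.23, 4.71 and 4.16 at 8 h, and MycER_RA had 5.53, 6.23 and 5.72 at 4 h and 3.73, 4.10 and 4.92 at 8 h. The altered forms overlapped with each other, and each lay below all EV libraries. Arhgdig fell in MycER_HEA against EV by 0.68 ± 0.12 at 4 h (limma, adjusted p = 9.44e-05) and by 1.04 ± 0.12 at 8 h (adjusted p = 4.36e-07), and MycER_RA was -0.62 ± 0.12 and -1.08 ± 0.12 from EV. MycER_RA and MycER_HEA were 0.05 ± 0.12 apart at 4 h, with a 95% interval of -0.19 to 0.29, and -0.04 ± 0.12 at 8 h, with an interval of -0.28 to 0.20. MycER_WT exceeded MycER_HEA by 1.51 ± 0.12 at 4 h (adjusted p = 2.59e-09) and by 2.03 ± 0.12 at 8 h (adjusted p = 2.40e-11), the largest difference between these forms among the 10 genes at both times. Arhgdig overlaps Rgs11 on the opposite strand, whose log2 fold change in MycER_WT against EV at 4 h was 0.62 ± 0.16 (adjusted p = 0.00648), while in MycER_HEA against EV at 8 h it was -0.17 ± 0.16 and did not pass (adjusted p = 0.408).

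Veph1, the relative of melted, resembled Cemip. MycER_RA had 4.64, 3.58 and 2.89 RPKM at 4 h and 3.25, 2.51 and 2.07 at 8 h. EV had 2.00, 1.03 and 1.46 RPKM at 4 h and 0.880, 0.844 and 1.19 at 8 h. All MycER_RA libraries lay above the 18 others, although the lowest, at 2.07 RPKM, was close to the highest of the others, EV replicate 1 at 4 h with 2.00 RPKM. MycER_RA exceeded EV by 1.08 ± 0.20 at 4 h and by 1.07 ± 0.20 at 8 h. Veph1 overlaps Ptx3 on the opposite strand, whose log2 difference between MycER_RA and EV was 0.21 ± 0.12 at 4 h and 0.55 ± 0.12 at 8 h.

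MycER_WT had 1.70, 1.42 and 1.12 RPKM of Veph1 at 4 h and 0.942, 1.02 and 1.09 at 8 h, and did not pass the test against EV (limma, adjusted p = 0.897 and 0.864). MycER_HEA had 0.766, 0.726 and 1.11 RPKM at 4 h and 1.11, 0.869 and 1.28 at 8 h. At 4 h Veph1 fell in MycER_HEA against EV by 0.53 ± 0.20 (adjusted p = 0.0359) with overlapping ranges, and at 8 h the difference of 0.11 ± 0.20 did not pass (adjusted p = 0.679). MycER_WT stood above MycER_HEA by 0.48 ± 0.20 at 4 h (adjusted p = 0.0475), and at 8 h the difference was -0.05 ± 0.20 (adjusted p = 0.842). The call against EV was lost without EV replicate 1 or 3 or without MycER_HEA replicate 1 or 2 (adjusted p = 0.0761 to 0.198), and the call between the forms without MycER_WT replicate 1 or 2 or MycER_HEA replicate 1 or 2 (adjusted p = 0.0897 to 0.161).

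Nat8l, the N-acetylaspartate synthase, parted the altered forms. EV had 4.36, 5.66 and 3.66 RPKM at 4 h and 3.54, 3.51 and 4.01 at 8 h. MycER_RA had 1.21, 1.63 and 1.94 RPKM at 4 h and 1.07, 1.23 and 1.58 at 8 h. MycER_HEA had 6.58, 11 and 6.35 RPKM at 4 h and 8.08, 4.75 and 4.61 at 8 h. All MycER_HEA libraries lay above the EV libraries of their time and all MycER_RA libraries below them. The differences from EV were -1.27 ± 0.24 and -1.23 ± 0.24 in MycER_RA and 0.72 ± 0.24 and 0.55 ± 0.24 in MycER_HEA.

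The rise of Nat8l in MycER_HEA passed the test at 4 h (limma, adjusted p = 0.0188) and missed it at 8 h (adjusted p = 0.0629). The call at 4 h was lost without EV replicate 1 or 3 or without MycER_HEA replicate 2 (adjusted p = 0.0502 to 0.138), and at 8 h the gene passed without MycER_HEA replicate 3 (adjusted p = 0.0437). MycER_WT had 4.66, 3.33 and 2.93 RPKM at 4 h and 2.32, 1.97 and 3.48 at 8 h; against EV it did not pass (adjusted p = 0.391 and 0.133). Its lowest library, at 1.97 RPKM, was just above the highest MycER_RA library, at 1.94 RPKM. MycER_WT was below MycER_HEA by a log2 difference of -1.01 ± 0.24 at 4 h (adjusted p = 0.00154) and -1.02 ± 0.24 at 8 h (adjusted p = 0.00134), with no overlap.

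Lctl, of the klotho and lactase family, was higher in MycER_RA and, at 8 h, in MycER_HEA. EV had 1.47, 0.721 and 1.22 RPKM at 4 h and 0.648, 0.924 and 0.661 at 8 h. MycER_RA had 2.59, 2.24 and 1.89 RPKM at 4 h and 3.25, 2.44 and 2.38 at 8 h. MycER_HEA had 1.42, 1.77 and 1.55 RPKM at 4 h and 2.01, 2.32 and 2.16 at 8 h. MycER_RA was above EV without overlap at both times, whereas MycER_HEA was so at 8 h and overlapped with EV at 4 h.

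The differences of Lctl from EV were 0.76 ± 0.18 and 1.35 ± 0.18 in MycER_RA. In MycER_HEA the gene rose by 1.10 ± 0.18 at 8 h (limma, adjusted p = 3.42e-05), and at 4 h the difference of 0.37 ± 0.18 did not pass (adjusted p = 0.0965) but did so without EV replicate 1 (adjusted p = 0.0354). MycER_WT had 0.891 to 1.35 RPKM at 4 h and 0.578 to 0.868 at 8 h, within or near the EV range, and did not pass (adjusted p = 0.887 and 0.895). The log2 difference of MycER_WT from MycER_HEA was -1.14 ± 0.18 at 8 h (adjusted p = 1.71e-05); at 4 h the difference of -0.41 ± 0.18 missed the threshold (adjusted p = 0.0575) and passed without MycER_WT replicate 1 (adjusted p = 0.0264). Lctl had 14 to 77 reads a library and Fgf2 2 to 61, the fewest of the 10. Lctl overlaps Zwilch on the opposite strand, whose log2 fold change in MycER_HEA against EV at 8 h was 0.35 ± 0.06 (limma, adjusted p = 0.000120). Between MycER_RA and EV, Zwilch differed in the direction of Lctl, by 0.30 ± 0.06 at 4 h and 0.08 ± 0.06 at 8 h.

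Ctxn1, the small membrane protein, was lower than EV in all 3 forms. EV had 10.0, 12.7 and 10.2 RPKM at 4 h and 11.6, 10.3 and 12.5 at 8 h. MycER_RA had 4.27, 2.31 and 4.12 RPKM at 4 h and 4.04, 4.55 and 6.07 at 8 h, a log2 difference from EV of -1.53 ± 0.18 and -1.16 ± 0.18. MycER_HEA had 5.10, 3.82 and 5.27 RPKM at 4 h and 3.88, 3.96 and 3.98 at 8 h. Every MycER_RA and MycER_HEA library lay under the EV libraries, as did every MycER_WT library, which had 4.98 to 7.04 RPKM at 4 h and 5.93 to 7.09 at 8 h.

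Ctxn1 fell in MycER_WT against EV by 0.82 ± 0.18 at 4 h (limma, adjusted p = 0.00227) and by 0.76 ± 0.18 at 8 h (adjusted p = 0.00265). It fell in MycER_HEA by 1.14 ± 0.18 (adjusted p = 4.18e-05) and by 1.42 ± 0.18 (adjusted p = 2.34e-06). MycER_WT was above MycER_HEA by 0.66 ± 0.18 at 8 h (adjusted p = 0.00475), and at 4 h the difference of 0.32 ± 0.18 did not pass (adjusted p = 0.151). MycER_RA and MycER_WT differed by -0.71 ± 0.18 at 4 h and -0.40 ± 0.18 at 8 h, where their ranges overlapped.

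**Figure D2:**
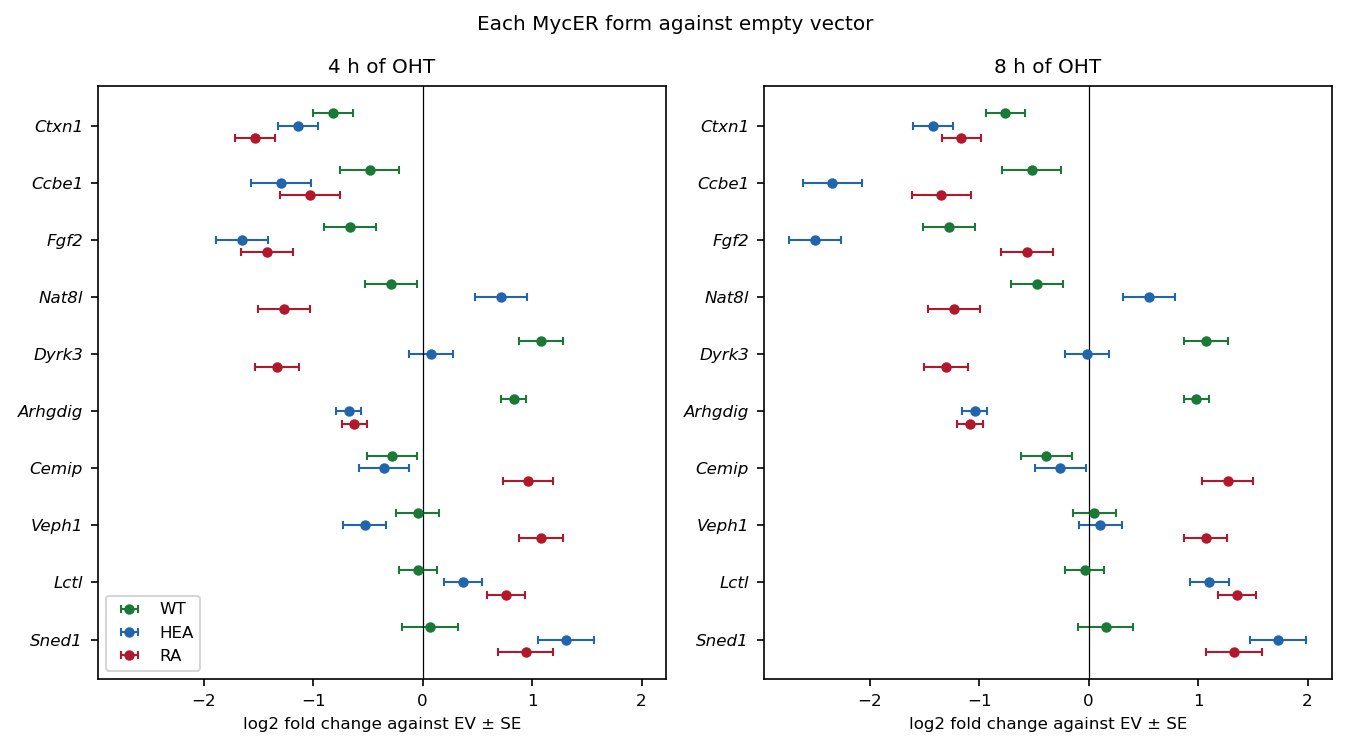
Log2 fold change (log2(RPKM + 0.5) scale) of each gene against EV at 4 h and 8 h, with points for MycER_WT, MycER_HEA and MycER_RA and bars for the SE. The SE comes from the spread over all 8 groups of 3 libraries and is the same for a gene in each comparison shown. The 3 forms share the same EV libraries, and the MycER_RA values chose the genes. At 8 h Dyrk3 reads 1.07 in MycER_WT, -0.02 in MycER_HEA and -1.31 in MycER_RA, while Ctxn1 is below 0 in each form.

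**Figure D3:**
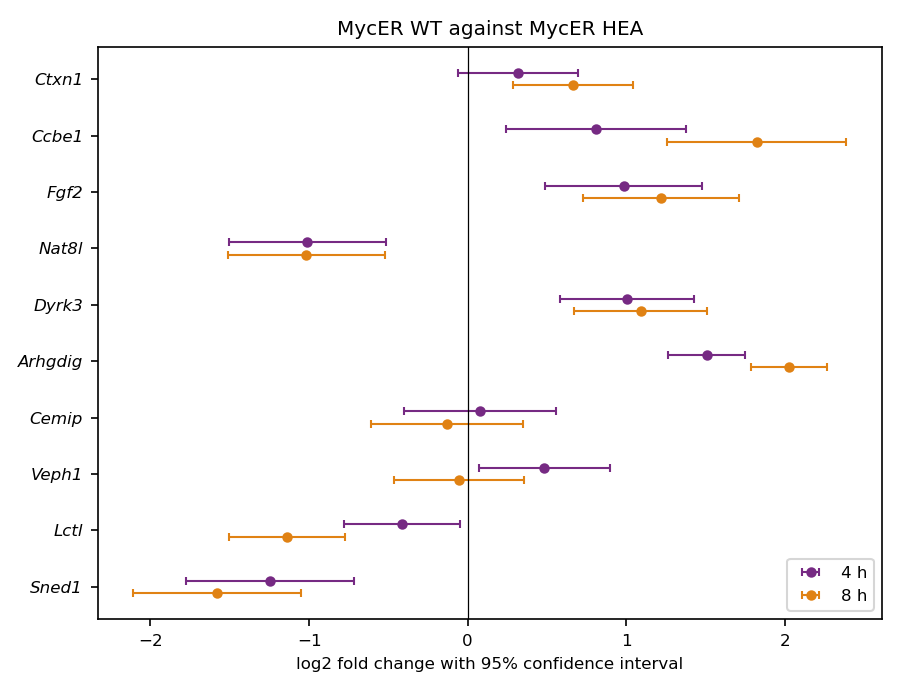
Log2 difference between MycER_WT and MycER_HEA at 4 h and 8 h with its 95% confidence interval, positive where MycER_WT is higher. Arhgdig has the largest difference, 1.51 at 4 h and 2.03 at 8 h, Sned1 the most negative, -1.25 and -1.58, and the intervals of Cemip include 0 at both times.

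Within MycER_RA, the libraries were not evenly spread. In 19 of 20 pairs of gene and time, MycER_RA replicate 1 was the farthest of the 3 from the EV mean. The exception was Ctxn1 at 4 h, where replicate 2 was farthest. Among the other genes called between MycER_RA and EV, replicate 1 was farthest in 42.7% of 642 at 4 h and in 63.6% of 332 at 8 h, and over all tested genes in 38.1% and 51.8%. The labels give no reason to treat this library apart. Without MycER_RA replicate 1 at both times, a choice made after seeing the data, the count over all genes went from 652 to 167 at 4 h and from 341 to 72 at 8 h. The Sned1 difference went from 0.94 to 0.65 at 4 h and from 1.33 to 1.03 at 8 h, and the Dyrk3 difference at 8 h went from -1.31 to -1.04.

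**Figure D4:**
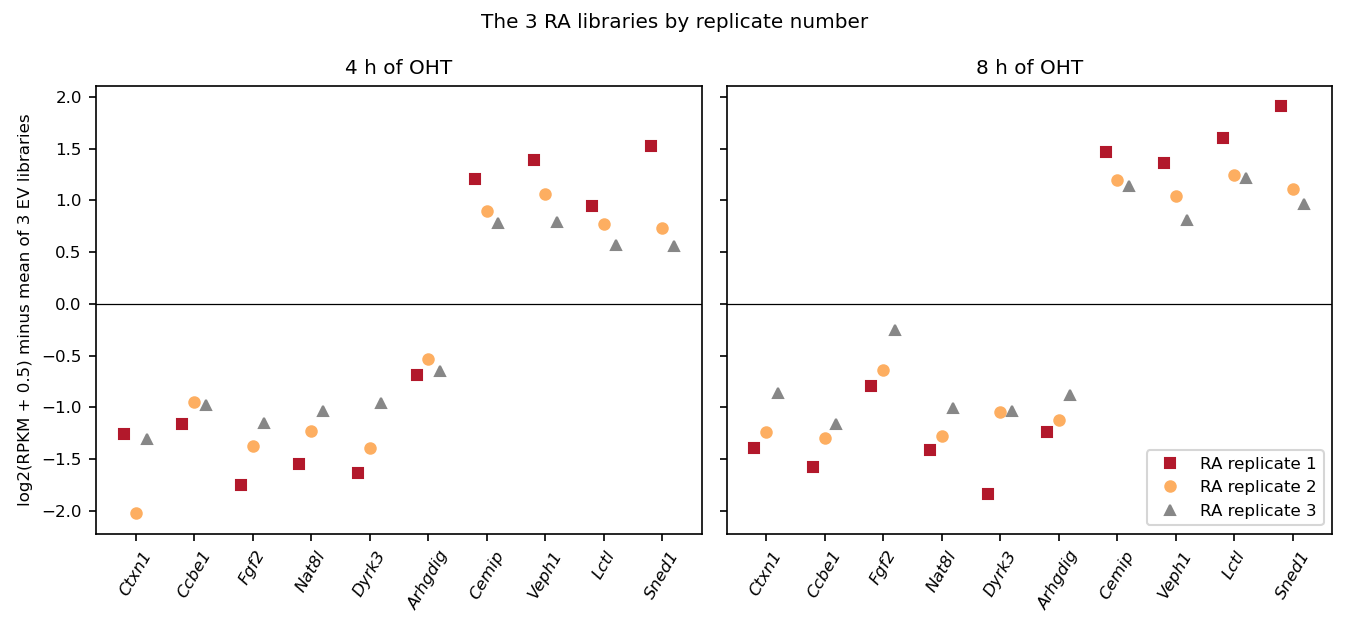
Each MycER_RA library minus the mean of the 3 EV libraries of its time, in log2(RPKM + 0.5), for the 10 genes at 4 h and 8 h, with a square for replicate 1, a circle for replicate 2 and a triangle for replicate 3. Squares lie farthest from 0 for every gene except Ctxn1 at 4 h, and all points of a gene lie on 1 side of 0.

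Across the 24 libraries the genes could be set beside those with the most similar profile, as a description in which points of 1 library share its depth and composition. Pearson's r on log2(RPKM + 0.5) was highest for Pcsk4 with Arhgdig, at 0.96, and for Cldn19 with Veph1, Rmdn2 with Cemip and Recql with Sned1, at 0.93 each. It was 0.92 for Knop1 with Dyrk3, 0.91 for Fam83h with Fgf2 and for Lrrc8b with Ccbe1, 0.90 for Mex3d with Nat8l and for Stac with Ctxn1, and 0.88 for Fbxw5 with Lctl. Pcsk4 had 10.6 RPKM in MycER_WT, 1.57 in MycER_HEA, 2.06 in MycER_RA and 3.93 in EV at 8 h, an order that differs from that of Arhgdig only between the altered forms. Among the 10 genes, the highest r was that of Cemip with Veph1, at 0.90, followed by Lctl with Sned1, at 0.84, Fgf2 with Ccbe1, at 0.81, and Dyrk3 with Arhgdig, at 0.75. Cemip and Dyrk3 ran in opposite directions, with r = -0.86.

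Other genes of the same pathways were counted beside the shares of all tested genes called at 8 h, 35.2% in MycER_WT against EV and 47.7% in MycER_HEA against EV, and nothing is read from a list near its share. Where counts at an unadjusted p under 0.05 are given, the share of all genes at that cut-off was not taken. Nothing is read from those counts. Of 12 FGF ligands listed, Fgf2 among them, 5 were expressed enough to be tested. In MycER_WT against EV at 8 h 1 was higher and 3 were lower, with a median log2 fold change of -0.36 against -0.02 over all genes. Fgf2 is among the 3 and in the median, and it was chosen against the same EV libraries. Fgf21, a metabolic hormone of the family, fell by 1.20 ± 0.20 there (limma, adjusted p = 0.000120), and Fgf18 rose by 1.03 ± 0.27 (adjusted p = 0.00552). In MycER_HEA against EV at 8 h Fgf7, a growth factor for epithelia, fell by 0.45 ± 0.10 (adjusted p = 0.00131). In MycER_RA no other ligand was called at either time, and the call of Fgf2 at 4 h follows from how it was chosen.

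Genes known to respond to FGF and MAP kinase signals were all expressed enough to test, 15 of 15. In MycER_WT against EV at 8 h 1 rose and 7 fell, and in MycER_HEA the counts were again 1 and 7, or 53.3% of the list in each, where the shares over all genes were 35.2% and 47.7%. The feedback inhibitor Spry1 rose by 0.97 ± 0.10 in MycER_WT (limma, adjusted p = 5.65e-07) and by 0.93 ± 0.10 in MycER_HEA (adjusted p = 4.76e-07). The transcription factor Etv5 fell by 0.90 ± 0.10 and by 1.30 ± 0.10 (adjusted p = 6.91e-07 and 2.58e-09), Etv1 fell by 1.26 ± 0.20 in MycER_WT (adjusted p = 5.96e-05), and the phosphatase Dusp6 fell by 1.24 ± 0.13 in MycER_HEA (adjusted p = 2.92e-07). In MycER_RA, 2 were called at 4 h, Etv4 at -0.55 ± 0.10 and Spred2 at -0.78 ± 0.21, and 1 at 8 h, Etv4 at -0.44 ± 0.10. Of 12 FGF receptors and helpers tested, Fgfr2 stood higher in MycER_RA by 0.60 ± 0.10 at 4 h and 0.54 ± 0.10 at 8 h. Fgfbp3, which binds FGFs, rose in MycER_WT at 8 h by 1.48 ± 0.14 (adjusted p = 1.81e-07), and the decoy-type receptor Fgfrl1 fell by 0.92 ± 0.10 in MycER_WT (adjusted p = 6.53e-07) and rose by 0.32 ± 0.10 in MycER_HEA (adjusted p = 0.0135).

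Around Ccbe1, 7 genes of VEGF-C processing and reception were tested. In MycER_WT against EV at 8 h 1 rose and 3 fell, among them Vegfc itself, by 1.20 ± 0.23 (limma, adjusted p = 0.000430), while the receptor partner Nrp2 rose by 0.46 ± 0.06 (adjusted p = 6.30e-06). In MycER_HEA 2 fell, the protease Pcsk7 by 0.63 ± 0.13 (adjusted p = 0.000551) and Figf, which encodes VEGF-D, by 0.85 ± 0.19 (adjusted p = 0.000878). None was called by limma in MycER_RA at either time; 1 had an unadjusted p under 0.05 at 4 h and 3 at 8 h, and voom on recovered reads called 0 at both.

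Around Cemip and Sned1, 13 hyaluronan genes and 16 matrix genes with EGF-like domains were tested, and none of either list was called by limma in MycER_RA against EV at 4 h or 8 h. At an unadjusted p under 0.05 there was 1 hyaluronan gene at each time, with 0 called by voom on recovered reads. Of the EGF-domain list, 3 had an unadjusted p under 0.05 at 4 h and 10 at 8 h, and voom called 0 and 1. Without the share of all genes at that cut-off, the 10 cannot be told from a broad shift. Of the 13 hyaluronan genes, 2 rose and 3 fell in MycER_WT against EV at 8 h, 38.5% against 35.2% of all genes. In MycER_HEA at 8 h 2 rose and 4 fell, 46.2% against 47.7% of all genes. Among those that fell in MycER_HEA, the hyaluronidase Hyal2 fell by 1.39 ± 0.10 (limma, adjusted p = 2.00e-09) and the hyaluronan synthase Has2 by 1.02 ± 0.09 (adjusted p = 1.33e-08). Stab1, of the same list, rose in MycER_WT at 8 h by 1.41 ± 0.16 (adjusted p = 1.37e-06). Of the EGF-domain list, 6 rose and none fell in MycER_HEA at 8 h, 37.5% of it against 47.7% of all genes, led by Fbln1, a fibulin, with 1.32 ± 0.16 (adjusted p = 1.61e-06), and 2 rose in MycER_WT, led by Matn2 with 0.71 ± 0.10 (adjusted p = 1.83e-05).

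Of 12 kinases of the DYRK, CLK and HIPK families tested, 2 rose and none fell in MycER_WT against EV at 8 h, 1 rose and 1 fell in MycER_HEA, and 1 was lower in MycER_RA. Dyrk2 rose by 0.39 ± 0.08 in MycER_WT (limma, adjusted p = 0.000418) and by 0.71 ± 0.08 in MycER_HEA at 8 h (adjusted p = 2.94e-07). As a description, the Dyrk2 difference between MycER_RA and EV was -0.44 ± 0.08 at 4 h and -0.30 ± 0.08 at 8 h. Of 10 genes of aspartate metabolism, 3 rose and none fell in MycER_WT at 4 h, 30% of them against 26.1% of all genes. None was called by limma in MycER_WT at 8 h (2 had an unadjusted p under 0.05, and voom called 1). In MycER_HEA at 8 h 2 rose and 6 fell, 80% of them against 47.7% of all genes. Acss2, an acetyl-CoA synthetase among those that rose in MycER_HEA, was up by 1.76 ± 0.12 (limma, adjusted p = 6.19e-10). Of 19 TGF-beta genes tested, 1 rose and 5 fell in MycER_WT at 8 h, 31.6% of them, with Smad3 down by 0.65 ± 0.05 (adjusted p = 2.87e-08), and 4 rose and 4 fell in MycER_HEA, 42.1%, both under the shares over all genes. The ligand Tgfb2 rose by 0.69 ± 0.11 in MycER_WT (adjusted p = 5.56e-05) and by 0.76 ± 0.11 in MycER_HEA (adjusted p = 9.29e-06), and was 0.51 ± 0.11 above EV in MycER_RA at 8 h.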

How the data were processed

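RNA-seq of 24 mouse 3T9 fibroblast libraries was analysed from the authors' RPKM values per gene, deposited as 1 table. Per the submitters' processing notes, TopHat2 2.0.8, SAMtools, featureCounts 1.4.5-p1 and DESeq2 were used with build mm9; no source used here gives the strand setting or annotation. Per the labels' protocols, the kit was stranded and used total RNA. The deposited tables of comparisons hold the authors' log2 fold changes and p-values. They were read but not used for the results, apart from the adjusted p quoted for Ccbe1 in MycER_WT against EV. Whole reads could be recovered from 99.995% of genes (tolerance 0.01 read), giving totals of 9.82 M to 12.8 M reads; intervals cover counting error only.

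The values log2(RPKM + 0.5) were fitted with limma 3.58.1 (R 4.3.3) as 8 group means with an intensity trend and 16 residual degrees of freedom, after a filter of 1 RPKM in 3 libraries, and tested on simulated data. Genes were named by rule: the 10 genes, Esr1 and Myc, from each list up to 3 genes by smallest p in MycER_WT and up to 2 in MycER_HEA at 8 h, the most similar gene, and the 3 other genes with the smallest p in MycER_RA; Nudt6, the other overlapping genes, further called genes in MycER_RA and examples from the lists were added after their values were seen. The 10 genes and the lists were chosen with earlier results of these data known. Replicates differed by 1.46 to 18.7 times the sampling variance, so none was a repeat deposit. Same-numbered libraries did not deviate together throughout, so the numbers were not used as pairs. Python 3.11.15 with scipy 1.17.1 gave the interval, and promoter windows came from RefSeq (GRCm38.p6). Alternatives are listed in the closing section. The result of a further gene list is not reported here.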

Additional observations from a re-analysis of the deposited data

How the results depend on the processing

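Of 1280 values of single genes under the alternatives to the tested comparisons, none that was called in either fit changed sign, and 29 that were called in neither did; 1227 stayed on the same side of the threshold, 42 fell short of it and 11 crossed it. The alternatives were pseudocounts of 0.1 and 1, no filter, a filter of 6 libraries, quantile normalisation, median centring, only the groups compared, no trend, a replicate block, voom on recovered reads, and leaving out each library. Besides the leave-one-out fits, Fgf2 in MycER_WT against EV at 4 h lost its call with pseudocount 0.1, no filter, quantile normalisation, median centring and only the groups compared (adjusted p = 0.0614 to 0.139). Veph1 lost its 2 calls at 4 h with no filter and with only the groups compared, and the one between MycER_WT and MycER_HEA also with pseudocount 1 (adjusted p = 0.0514 to 0.115). Nat8l in MycER_HEA against EV and Ccbe1 in MycER_WT against MycER_HEA, both at 4 h, lost theirs with only the groups compared (adjusted p = 0.0519 and 0.0649). Calls were gained by Nat8l in MycER_HEA at 8 h with median centring, voom and only the groups compared (adjusted p = 0.0437 to 0.0477), by Ccbe1 in MycER_WT at 8 h with only the groups compared (0.0345), and between MycER_WT and MycER_HEA at 4 h by Ctxn1 with quantile normalisation (0.0440) and Lctl with no trend (0.0407). For change over time, the count of 1 gene became 0 in MycER_WT with pseudocount 0.1, no filter, voom or only the groups compared, and 0 in MycER_HEA with only the groups compared; leaving out 1 library gave 0 to 1 in MycER_WT and 0 to 2 in MycER_HEA. Leave-one-out counts were 3 to 4 for MycER_WT against EV at 4 h, 5 to 7 and 6 to 7 for MycER_HEA against EV at 4 h and 8 h, and 5 to 7 for MycER_WT against MycER_HEA at 4 h. With a replicate block the counts were 4, 4, 7, 6, 7, 8, 1 and 1, as without it, and the numbers did not pair the samples. The count of all genes called between MycER_RA and EV was 652 at 4 h and 3 with only the groups compared, and 341 at 8 h and 1310; voom gave 526 at 8 h. Without 1 library it fell as low as 158 (EV replicate 2) at 4 h and 59 (MycER_RA replicate 1) at 8 h, and the cause was not tested. Fgf2 and Lctl are limited by their few reads.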
